A study of Zea mays with 48 samples.

Results

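The 3 secondary-wall cellulose synthase genes of maize, cesa10 (Zm00001d032776), cesa11 (Zm00001d043477) and cesa12 (Zm00001d020531), were followed in seedlings of the inbred line B73 under local and whole-plant chilling. They were taken by their identifiers, as 3 of the 46430 identifiers counted in the series, and all 3 passed the low-count filter in all 4 tissues. The names belong to the identifier list that defines the set. The gene name table used here lists cesa10, cesa11 and cesa12 under other identifiers, so the pairing of name and identifier was not checked.

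Cellulose synthases are plasma-membrane enzymes that spin glucan chains into cellulose microfibrils. Plants use separate sets of these subunits for the primary wall of expanding cells and for the secondary wall that is laid down once expansion has stopped, above all in xylem vessels and fibres. In Arabidopsis, the secondary-wall complex needs 3 different kinds of subunit, and loss of any of them weakens the walls so that xylem vessels collapse. The genes for these subunits are known to be transcribed together in tissues that form xylem.

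RNA was counted in 48 libraries of plants at the stage of 3 leaves, taken from leaf, root and the top and bottom of the crown, where shoot and root meet. Chilling lasted 24 h and was given in 3 ways. The whole-plant treatment cooled both organs to 4 °C. The shoot-only treatment cooled the shoot to 4 °C over a root kept at 26 °C. The root-only treatment cooled the root to 0 °C below a shoot kept at 26 °C. Control plants stayed at 26 °C throughout. Each of the 16 combinations of tissue and condition had 3 libraries, described as biological repeats. Whether a repeat was 1 plant or a pool, and at which temperature the crown was held when shoot and root differed, is not stated. The cold root was thus at 4 °C in one of these treatments and at 0 °C in another.

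Library totals ran from 3449880 to 8633854 counts. Plastid transcripts made up 0.00768 to 0.0538% of counts in the 12 leaf libraries, and at most 0.00544% in every library of the other tissues. Nuclear markers of the tissues could not be looked up by name. Levels are given as CPM, a count relative to its library's size, with all 48 libraries put on 1 scale by the trimmed mean of M values (TMM). Its factors were 0.526 to 0.891 in leaf and 0.822 to 1.36 elsewhere. The libraries read transcript 3′ ends, so levels are compared between samples and not between genes.

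In control plants, all 3 genes were highest in the bottom crown. The bottom crown libraries had 65.3, 75.0 and 96.6 CPM of cesa10. Leaf libraries had 42.1, 23.4 and 20.2 CPM of cesa10, root libraries 13.4, 11.0 and 11.3 CPM, and top crown libraries 6.23, 6.51 and 3.98 CPM. No 2 tissues overlapped in cesa10.

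For cesa11 the bottom crown had 267.0, 263.2 and 336.9 CPM and the leaf 98.6, 70.2 and 93.9 CPM. Root libraries had 47.9, 32.2 and 33.3 CPM of cesa11, and top crown libraries 23.0, 29.8 and 25.9 CPM. The order of the tissues was the same as for cesa10, with root and top crown close to each other.

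The cesa12 levels were 82.5, 67.2 and 85.0 CPM in the bottom crown and 31.7, 19.7 and 24.3 CPM in the leaf. Here the root, with 8.31, 5.08 and 6.21 CPM, overlapped the top crown, with 10.3, 11.7 and 6.54 CPM. Summed over the 3 genes, the level was 446.3 ± 62.7 CPM in the bottom crown, 141.4 ± 29.6 CPM in the leaf, 56.3 ± 11.7 CPM in the root and 41.3 ± 6.03 CPM in the top crown (SD, n = 3 each).

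**Figure D1:**
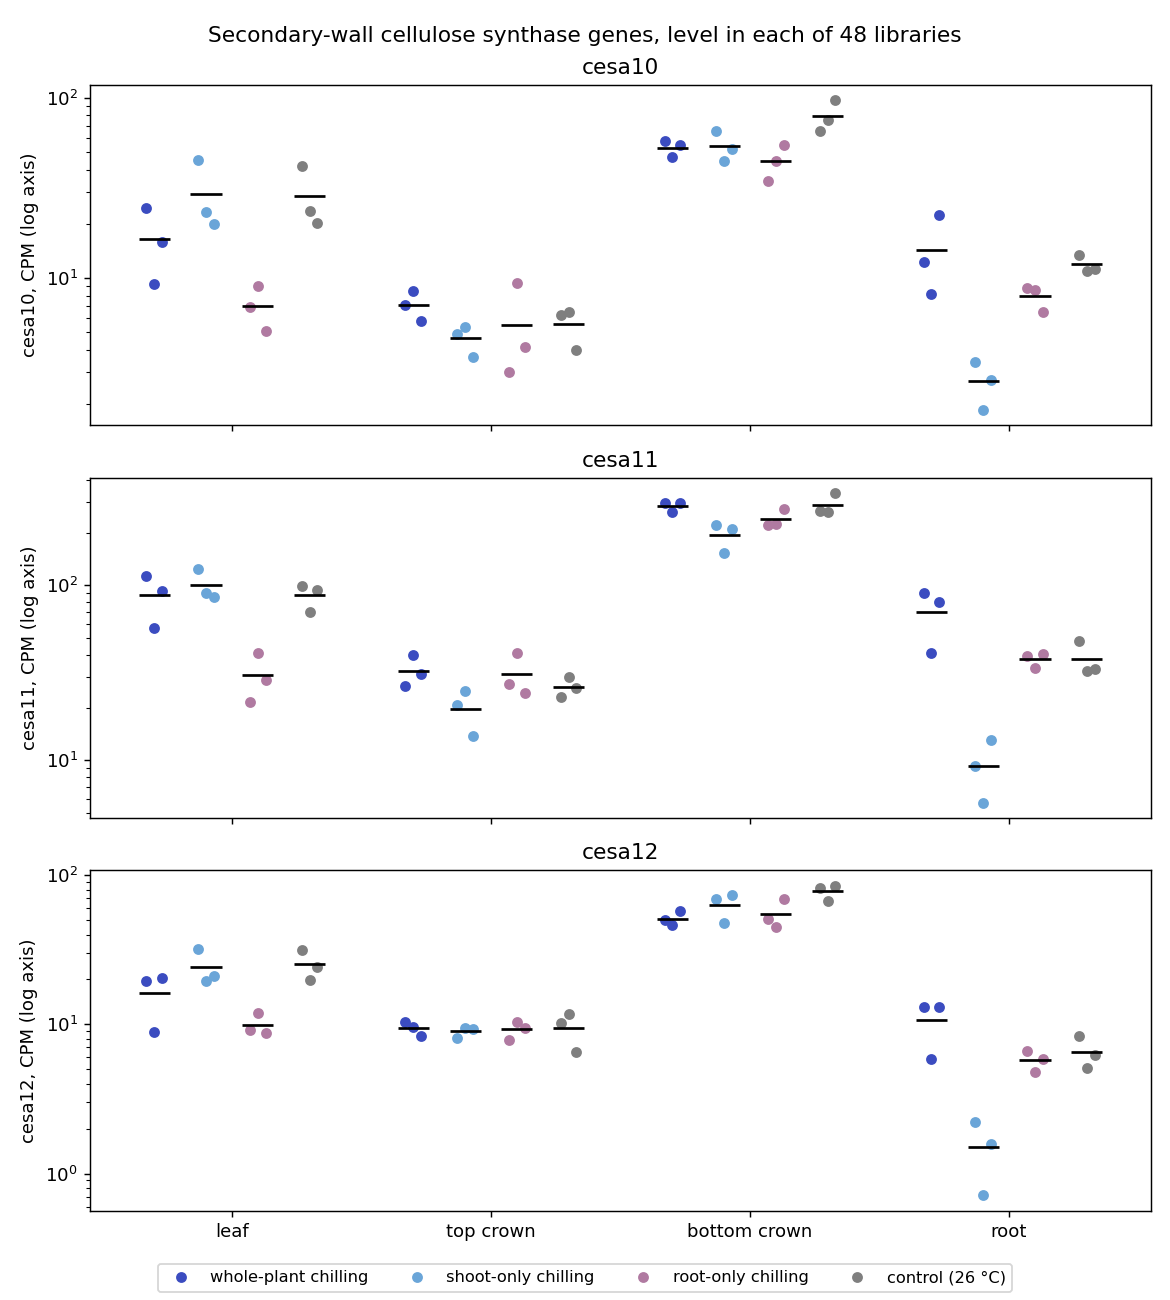
Level of cesa10, cesa11 and cesa12 in each of the 48 libraries, in CPM on a log axis, by tissue; points are libraries, black bars are means of 3 libraries, and colours mark whole-plant, shoot-only and root-only chilling and control. The bottom crown is highest for every gene in control plants, leaf levels are low under root-only chilling, and root levels are low under shoot-only chilling.

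The bottom crown exceeded the top crown, its immediate neighbour in the plant, by a log2 difference of 3.82 ± 0.35 (SE) for cesa10, 3.46 ± 0.28 for cesa11 and 3.04 ± 0.26 for cesa12. The adjusted p was 6.4e-12 for cesa10, 2.79e-13 for cesa11 and 9.36e-13 for cesa12, by edgeR's quasi-likelihood test with Benjamini-Hochberg adjustment, as for every adjusted p below unless another tool is named. All 3 genes passed the threshold of 0.05, where 43.2% of all genes did. In bulk tissue, fewer cells that express a gene and less RNA per cell cannot be told apart.

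Against root, the bottom crown was higher by 2.73, 2.93 and 3.58 on the log2 scale for cesa10, cesa11 and cesa12, and all 3 passed, with 51.4% of all genes called. Against leaf it was higher by 1.45, 1.71 and 1.61, and all 3 passed, with 60.6% of all genes called. The leaf in turn was higher than the root by 1.28, 1.22 and 1.97 (3 of 3 called; 64.7% of all genes) and higher than the top crown by 2.37, 1.75 and 1.43 (3 of 3 called; 65.4% of all genes). Leaf comparisons depended on scaling: the median of all genes was shifted by -0.38 for leaf against root with TMM scaling and by -1.43 with library size alone. With library size alone, leaf against root came to 0.23 for cesa10 (adjusted p = 0.532) and 0.18 for cesa11 (adjusted p = 0.516), and leaf against top crown came to 0.29 for cesa12 (adjusted p = 0.31).

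With TMM scaling, root and top crown had the closest levels of these genes among control tissues. Only cesa10 passed, with a log2 difference of 1.09 ± 0.35 in favour of the root (adjusted p = 0.00638), in a comparison where 67.3% of all genes were called. For cesa11 the root was 0.53 ± 0.27 higher (adjusted p = 0.0789), and for cesa12 it was 0.54 lower, at -0.54 ± 0.28 (adjusted p = 0.085). The cesa12 difference passed when root control replicate 1 was left out (-0.75, adjusted p = 0.038) and when top crown control replicate 3 was left out (-0.75, adjusted p = 0.0276).

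Root-only chilling lowered all 3 genes in the leaf, which was itself kept at 26 °C. Leaf libraries of root-only chilled plants had 6.90, 9.08 and 5.07 CPM of cesa10, against 42.1, 23.4 and 20.2 CPM in control leaves. They had 21.6, 41.2 and 28.7 CPM of cesa11, against 98.6, 70.2 and 93.9 CPM in control leaves. They had 9.14, 11.9 and 8.70 CPM of cesa12, against 31.7, 19.7 and 24.3 CPM in control leaves. In each gene every root-only library was below every control library. How many of all genes separated in this way was not counted, either here or for the other groups described.

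The change was -1.98 ± 0.38 on the log2 scale for cesa10 (SE, adjusted p = 0.000377), a 3.96-fold lower level. It was -1.49 ± 0.25 for cesa11 (adjusted p = 5.92e-05), a 2.81-fold lower level, and -1.32 ± 0.28 for cesa12 (adjusted p = 0.000503), a 2.50-fold lower level. All 3 genes were called lower in a comparison in which 47.1% of all genes were called and 24.3% were called lower. Each call held when any 1 of the 6 libraries was left out, and it held with library size alone, at -1.56, -1.08 and -0.90.

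In leaves that were themselves chilled, none of the 3 genes passed against control. In whole-plant chilled leaves cesa10 had 24.6, 9.22 and 15.9 CPM, cesa11 113.3, 57.2 and 93.1 CPM, and cesa12 19.4, 8.85 and 20.3 CPM. Shoot-only chilled leaves had 45.0, 23.3 and 20.0 CPM of cesa10, 124.7, 90.0 and 85.2 CPM of cesa11, and 32.2, 19.4 and 21.1 CPM of cesa12. Both conditions overlapped the control leaves in every gene. For all 3 genes replicate 2 was the lowest of the whole-plant chilled leaves.

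None of the 3 genes was called in whole-plant chilled leaves against control by edgeR, none had an unadjusted p under 0.05, and DESeq2 called 0, where edgeR called 30.1% of all genes. The log2 changes were -0.69 ± 0.36 for cesa10, 0.10 ± 0.24 for cesa11 and -0.55 ± 0.28 for cesa12. The interval of the cesa10 change, at 95% by a normal approximation, ran from -1.40 to 0.03, so a sizeable fall was not separable from no change. Such intervals are somewhat narrower than the edgeR test implies. For cesa12 the interval ended at -0.00975, short of no change, while its unadjusted p by edgeR was 0.0597. Without whole-plant leaf replicate 1 the cesa10 change was -1.08 (adjusted p = 0.0497).

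In shoot-only chilled leaves against control the counts were likewise 0 called, 0 with an unadjusted p under 0.05 and 0 by DESeq2, with 29.4% of all genes called by edgeR. The log2 changes were 0.09 ± 0.35, 0.24 ± 0.24 and -0.02 ± 0.27 for cesa10, cesa11 and cesa12. Set directly against shoot-only chilled leaves, whole-plant chilled leaves had 0 of 3 genes called by edgeR and 0 by DESeq2, and 1 with an unadjusted p under 0.05, cesa10 at -0.78 ± 0.36. Only 0.0694% of all genes were called between these 2 groups.

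The contrast between chilled leaves and warm leaves over a cold root was tested directly. Shoot-only chilled leaves were higher than root-only leaves by 2.07 ± 0.38 for cesa10, 1.73 ± 0.25 for cesa11 and 1.30 ± 0.27 for cesa12, with adjusted p of 0.00018, 7.83e-06 and 0.000414 (3 of 3 called; 58.4% of all genes). Whole-plant chilled leaves were higher than root-only leaves by 1.30 ± 0.39 (adjusted p = 0.00981), 1.59 ± 0.25 (adjusted p = 2.16e-05) and 0.77 ± 0.28 (adjusted p = 0.026) for cesa10, cesa11 and cesa12 (3 of 3 called; 58% of all genes). The second set was less stable than the first. Its cesa10 call was lost without whole-plant replicate 1 (0.91). Its cesa12 call was lost without whole-plant replicate 1 (0.63) or 3 (0.61) and without root-only replicate 1 (0.67) or 3 (0.70). With library size alone, the whole-plant against root-only difference was 0.68 for cesa10 and 0.15 for cesa12, and neither was called.

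**Figure D2:**
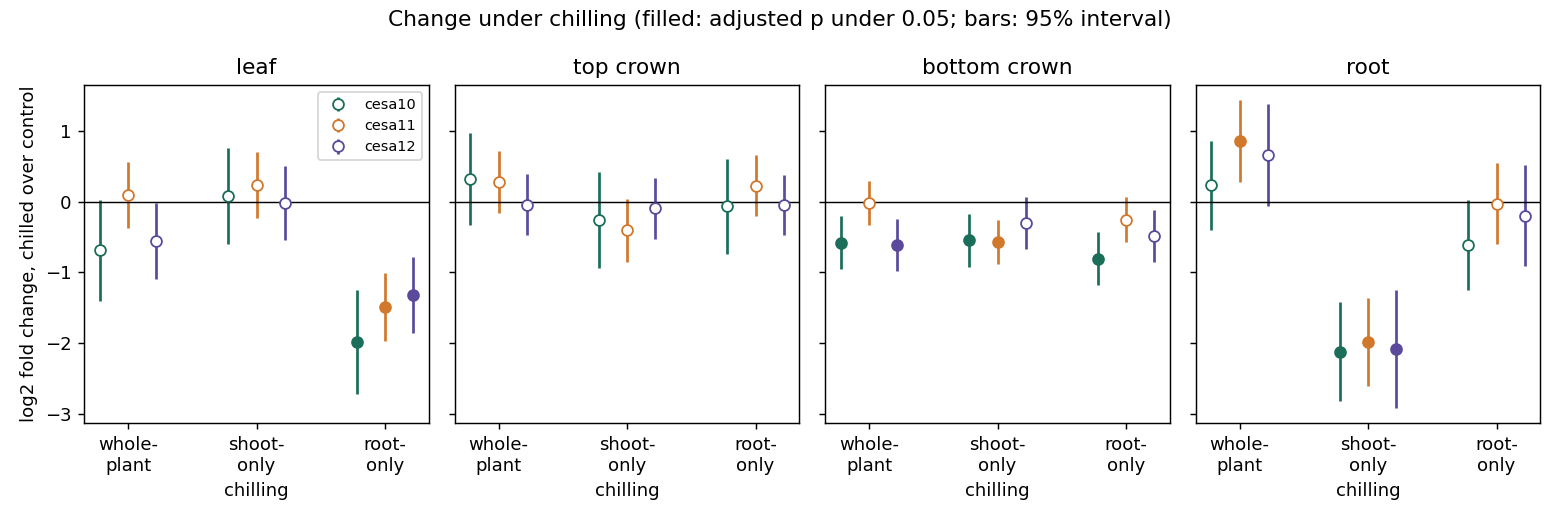
Log2 fold change of each gene, chilled over control, in the 4 tissues under whole-plant, shoot-only and root-only chilling. Points are edgeR estimates, bars are 95% intervals by a normal approximation, and filled points passed an adjusted p of 0.05. The falls of 1.32 to 1.98 in root-only leaves and of 1.98 to 2.12 in shoot-only roots stand out from the smaller changes of the crown.

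In the root the pattern was turned round: the genes fell when the shoot alone was chilled and the root stayed at 26 °C. Roots of shoot-only chilled plants had 3.42, 1.86 and 2.74 CPM of cesa10, against 13.4, 11.0 and 11.3 CPM in control roots. The cesa11 levels were 9.23, 5.73 and 13.0 CPM in shoot-only roots, against 47.9, 32.2 and 33.3 CPM in control roots. The cesa12 levels were 2.22, 0.716 and 1.59 CPM in shoot-only roots, against 8.31, 5.08 and 6.21 CPM in control roots. No shoot-only root reached the lowest control root in any of the 3 genes, and for each gene the lowest of all 48 libraries was shoot-only root replicate 2.

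These cesa12 values rest on 13, 5 and 11 counts, so they are imprecise. The log2 changes were -2.12 ± 0.36 for cesa10 (adjusted p = 0.000939), -1.98 ± 0.32 for cesa11 (adjusted p = 0.000613) and -2.09 ± 0.43 for cesa12 (adjusted p = 0.00311). As folds, the levels were 4.35, 3.96 and 4.24 times lower. All 3 genes were called lower where 22.3% of all genes were called and 12.6% were called lower, and each call held when any 1 of the 6 libraries was left out.

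Roots that were chilled together with the shoot had the highest mean of the 4 root groups for each gene, with a wide spread. Whole-plant chilled roots had 89.9, 41.1 and 80.0 CPM of cesa11, against 47.9, 32.2 and 33.3 CPM in control roots. They had 12.3, 8.18 and 22.4 CPM of cesa10, against 13.4, 11.0 and 11.3 CPM in control roots, and 13.1, 5.84 and 13.1 CPM of cesa12, against 8.31, 5.08 and 6.21 CPM in control roots. All 3 genes overlapped the control: replicate 2 lay below the highest control root in cesa11, and below every control root in cesa10. Replicate 2 was the lowest of the 3 whole-plant roots in each gene, and replicate 1 was the library with the smallest total, 4073804, and the smallest TMM factor, 0.822, among the roots.

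Of the 3 genes, cesa11 rose in whole-plant chilled roots against control, by 0.86 ± 0.30 on the log2 scale (adjusted p = 0.041), while 29.3% of all genes were called. The changes of 0.23 ± 0.32 for cesa10 (adjusted p = 0.624) and 0.67 ± 0.37 for cesa12 (adjusted p = 0.188) did not pass. The cesa11 call was lost without control replicate 2 (0.77) or 3 (0.78), without whole-plant replicate 1 (0.65) or 3 (0.76), with library size alone (0.50), and when only the 6 libraries compared were fitted (0.87, adjusted p = 0.0781).

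Roots chilled alone, at 0 °C, had 8.78, 8.54 and 6.53 CPM of cesa10, 39.2, 33.8 and 40.4 CPM of cesa11, and 6.65, 4.82 and 5.90 CPM of cesa12. Their cesa10 values all lay below the lowest control root, 11.0 CPM, while cesa11 and cesa12 overlapped the control. No gene was called: edgeR counted 0, there were 0 with an unadjusted p under 0.05, and DESeq2 counted 0, in the comparison with the smallest share of genes called against control, 7.62%. The log2 changes were -0.61 ± 0.32, -0.02 ± 0.30 and -0.19 ± 0.37 for cesa10, cesa11 and cesa12.

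The chilled roots were also compared directly with each other. Whole-plant chilled roots were higher than shoot-only roots by 2.35 ± 0.37, 2.84 ± 0.32 and 2.75 ± 0.43 for cesa10, cesa11 and cesa12, with adjusted p of 9.85e-05, 6.28e-06 and 9.51e-05 (3 of 3 called; 51.2% of all genes). Shoot-only roots were lower than root-only roots, at -1.52 ± 0.36, -1.96 ± 0.32 and -1.89 ± 0.43, with adjusted p of 0.00445, 0.000243 and 0.00286 (3 of 3 called; 37.6% of all genes).

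Whole-plant against root-only roots gave differences of 0.84 ± 0.33, 0.88 ± 0.30 and 0.86 ± 0.37, with adjusted p of 0.105, 0.0606 and 0.137. Here edgeR called 0 of 3 genes, all 3 had an unadjusted p under 0.05, and DESeq2 called 1, cesa11, with 14% of all genes called by edgeR. With replicate number fitted as a blocking term, in a comparison where all same-numbered pairs correlated by over 0.1, cesa11 passed (0.82, adjusted p = 0.0154). Without whole-plant replicate 2, all 3 genes passed, at 1.12 for cesa10, 1.15 for cesa11 and 1.16 for cesa12.

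The difference between leaf and root responses was itself tested, as the change in leaf minus the change in root. For shoot-only chilling it was 2.19 ± 0.52 for cesa10, 2.20 ± 0.39 for cesa11 and 2.05 ± 0.46 for cesa12 (adjusted p = 0.00147, 3.63e-05 and 0.000794), and all 3 were called where 22.6% of all genes were. For root-only chilling it was -1.45 ± 0.50, -1.53 ± 0.38 and -1.19 ± 0.41 (adjusted p = 0.0242, 0.00173 and 0.0234), and all 3 were called where 28.6% of all genes were. For whole-plant chilling it was -1.06 ± 0.49 and -0.89 ± 0.38 for cesa10 and cesa11, which were not called, and -1.34 ± 0.41 for cesa12 (adjusted p = 0.0221), with 12.8% of all genes called. Each local chilling thus went with lower levels in the organ that stayed warm than in the organ that was chilled, measured against the control of each organ.

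Only the shoot-only differences held throughout the leave-one-out fits for all 3 genes. In root-only chilling, the cesa10 difference was no longer called without leaf control replicate 1 (-1.06), leaf root-only replicate 3 (-1.27) or root root-only replicate 1 (-1.37). The cesa12 difference was no longer called without leaf control replicate 1 (-1.01), root control replicate 2 (-1.04), leaf root-only replicate 1 (-1.13) or 3 (-1.11), or root root-only replicate 1 (-1.08). In whole-plant chilling, the cesa12 difference was lost without leaf control replicate 1 (-1.09), root control replicate 2 (-1.19), leaf whole-plant replicate 2 (-0.999) or root whole-plant replicate 1 (-1.19) or 3 (-1.14), and the cesa11 difference passed without root whole-plant replicate 2 (-1.17). The cesa11 difference in root-only chilling held in all 12 such fits.

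The bottom crown, where the genes were highest, showed small changes. Bottom crowns of root-only chilled plants had 34.5, 44.8 and 54.8 CPM of cesa10, against 65.3, 75.0 and 96.6 CPM in control bottom crowns, with no overlap. Whole-plant chilled bottom crowns had 57.2, 46.9 and 54.4 CPM of cesa10, likewise all below the control. Shoot-only chilled bottom crowns had 65.3, 44.7 and 52.2 CPM of cesa10, with the highest of them level with the lowest control.

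The gene cesa10 fell in all 3 conditions, by -0.58 ± 0.19 under whole-plant chilling (adjusted p = 0.0265), by -0.55 ± 0.19 under shoot-only chilling (adjusted p = 0.0453) and by -0.80 ± 0.19 under root-only chilling (adjusted p = 0.00369). These comparisons share their control libraries, and control replicate 3 had the highest cesa10 level of all 48 libraries. Without that library the changes were -0.40, -0.37 and -0.63, and only the root-only one was called, with an adjusted p of at most 0.0276 in any leave-one-out fit. The whole-plant call was also lost without whole-plant replicate 2 (-0.49) or 3 (-0.60). The shoot-only call was also lost without control replicate 2 (-0.58) and without shoot-only replicate 2 (-0.42) or 3 (-0.52).

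The gene cesa11 took a different course in the bottom crown. It had 296.0, 261.7 and 297.2 CPM after whole-plant, 222.5, 152.5 and 208.6 CPM after shoot-only and 222.4, 223.8 and 274.6 CPM after root-only chilling, with 267.0, 263.2 and 336.9 CPM in control. Only the shoot-only libraries lay wholly below the control. The changes against control were -0.02 ± 0.16 for whole-plant (adjusted p = 0.937), -0.57 ± 0.16 for shoot-only (adjusted p = 0.0165) and -0.25 ± 0.16 for root-only chilling (adjusted p = 0.232). The shoot-only call was lost without control replicate 3 (-0.44) and without shoot-only replicate 2 (-0.41).

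For cesa12 the bottom crown had 49.8, 46.0 and 57.6 CPM after whole-plant, 69.1, 47.6 and 73.9 CPM after shoot-only and 50.7, 44.9 and 69.6 CPM after root-only chilling, with 82.5, 67.2 and 85.0 CPM in control. The whole-plant libraries did not overlap the control, and those of the other conditions did. The whole-plant change of -0.61 ± 0.19 was called (adjusted p = 0.0187), the shoot-only change of -0.30 ± 0.19 was not (adjusted p = 0.262), and the root-only change of -0.49 ± 0.19 fell at the threshold (adjusted p = 0.05001). The whole-plant call was lost without control replicate 1 (-0.58) or 3 (-0.54) and without whole-plant replicate 2 (-0.53). The root-only change was called without control replicate 2 (-0.59) or root-only replicate 3 (-0.69).

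In counts, the bottom crown had 2 of 3 genes called under whole-plant chilling (35% of all genes), 2 of 3 under shoot-only chilling (26.2%) and 1 of 3 under root-only chilling (39.4%). In 1 fit of all 48 libraries, whose spread is shared with the other tissues, cesa10 under whole-plant and shoot-only chilling and cesa11 under shoot-only chilling were not called, with changes that differed little (-0.58, -0.55 and -0.57). Between chilling conditions, whole-plant chilled bottom crowns had more cesa11 than shoot-only ones, by 0.55 ± 0.16 (adjusted p = 0.0132; 1 of 3 genes called; 39.6% of all genes). That call was lost without shoot-only replicate 2 (0.40, adjusted p = 0.0518), and the cesa12 difference of -0.31 passed without it (-0.49, adjusted p = 0.0407). No gene was called between whole-plant and root-only chilling (23.7% of all genes) or between shoot-only and root-only chilling (34.1%), with 0 of 3 at an unadjusted p under 0.05 and 0 by DESeq2 in both.

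In the top crown, no gene passed against control under any chilling. The cesa10 levels there were 7.06, 8.51 and 5.80 CPM after whole-plant, 4.89, 5.39 and 3.66 CPM after shoot-only and 3.01, 9.44 and 4.15 CPM after root-only chilling, with 6.23, 6.51 and 3.98 CPM in control. The cesa11 levels were 26.6, 40.0 and 31.2 CPM after whole-plant, 20.6, 24.9 and 13.7 CPM after shoot-only and 27.2, 41.3 and 24.3 CPM after root-only chilling, with 23.0, 29.8 and 25.9 CPM in control. The cesa12 levels kept to between 6.54 and 11.7 CPM in all 12 libraries. Every chilled group overlapped the control in all 3 genes.

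Counts of called genes were 0 of 3 by edgeR, 0 at an unadjusted p under 0.05 and 0 by DESeq2 under each of the 3 conditions, where 36.2% (whole-plant), 23.9% (shoot-only) and 35.9% (root-only) of all genes were called. The log2 changes ranged from -0.40 ± 0.23 for cesa11 under shoot-only chilling to 0.32 ± 0.33 for cesa10 under whole-plant chilling. For cesa12 under whole-plant chilling the 95% interval, by a normal approximation, ran from -0.47 to 0.39. These libraries held 19 to 53 counts of cesa10, which limits what could be detected.

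Between chilling conditions, whole-plant chilled top crowns had more cesa11 than shoot-only ones, by 0.69 ± 0.23 (adjusted p = 0.0348; 1 of 3 genes called; 25.8% of all genes). The call was lost without whole-plant replicate 2 (0.52) or 3 (0.73), without shoot-only replicate 1 (0.71) or 3 (0.49), and with library size alone (0.56). Shoot-only against root-only top crowns had 0 of 3 genes called by edgeR, 1 with an unadjusted p under 0.05 and 1 called by DESeq2, with 23.2% of all genes called by edgeR. That gene was cesa11, at -0.64 ± 0.23 (adjusted p = 0.0536), and it passed without shoot-only replicate 2 (-0.83) or root-only replicate 3 (-0.79). Whole-plant against root-only top crowns had 0 of 3 called, 0 at an unadjusted p under 0.05 and 0 by DESeq2 (26.9% of all genes), though cesa10 passed without root-only replicate 2 (0.97, adjusted p = 0.0385).

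Whether the crown parts responded differently was tested as the change in the bottom crown minus the change in the top crown. It was -0.93 ± 0.47, -0.34 ± 0.37 and -0.61 ± 0.36 under whole-plant chilling for cesa10, cesa11 and cesa12. Under shoot-only chilling it was -0.29 ± 0.49, -0.17 ± 0.38 and -0.22 ± 0.36, and under root-only chilling -0.75 ± 0.48, -0.50 ± 0.37 and -0.46 ± 0.36. None of the 9 differences was called by edgeR, 0 had an unadjusted p under 0.05 and DESeq2 called 0, in comparisons where 0.304%, 0.023% and 1.62% of all genes were called. The crown parts were therefore not shown to differ in response, and the SE of 0.36 to 0.49 leave room for differences of the size seen in the bottom crown.

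The ratios of cesa11 to the other members differed between conditions in the bottom crown. The log2 ratio of cesa11 to cesa12, taken as CPM + 1, was 2.46 ± 0.10 in whole-plant chilled bottom crowns, against 1.87 ± 0.16 in control bottom crowns (SD, n = 3 each). The ratio of cesa11 to cesa10 was 2.41 ± 0.05 in whole-plant chilled bottom crowns, against 1.87 ± 0.13 in control ones. In both ratios the whole-plant libraries, at 2.35 or more, lay above every control library, which reached 2.01 at most. Root-only chilled bottom crowns had a cesa11 to cesa10 ratio of 2.42 ± 0.20, and shoot-only ones of 1.83 ± 0.13. The cesa11 to cesa12 ratio of root-only bottom crowns, 2.12 ± 0.16, overlapped the control. The cesa11 to cesa12 ratio of shoot-only bottom crowns went the other way, at 1.61 ± 0.11 against 1.87 ± 0.16 in control ones, with every shoot-only library below every control library. The ratio of cesa10 to cesa12 was 0.05 ± 0.14 in whole-plant chilled bottom crowns, against 0.003 ± 0.29 in control ones, and these groups overlapped.

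Leaves showed the same direction under whole-plant chilling. The cesa11 to cesa12 ratio was 2.40 ± 0.22 in whole-plant chilled leaves, against 1.76 ± 0.15 in control leaves, with no overlap. Shoot-only chilled leaves, at 2.01 ± 0.13, also lay above every control leaf in this ratio. The cesa11 to cesa10 ratio just overlapped, at 2.38 ± 0.19 in whole-plant chilled leaves, against 1.64 ± 0.48 in control leaves. The cesa10 to cesa12 ratio also overlapped, at 0.01 ± 0.33 in whole-plant chilled leaves, against 0.13 ± 0.34 in control leaves. In root-only leaves, where all 3 genes fell, the cesa11 to cesa12 ratio was 1.49 ± 0.29. Whole-plant chilled top crowns had 1.67 for the same ratio, against 1.40 in control ones, and these groups overlapped. Their cesa11 to cesa10 ratio did not rise, at 2.04 against 2.07 in control top crowns. In whole-plant chilled roots the cesa11 to cesa12 ratio was 2.61 ± 0.08, against 2.36 ± 0.10 in control roots, with no overlap. The cesa11 to cesa10 ratio was 2.26 ± 0.50 in whole-plant chilled roots, against 1.57 ± 0.16 in control roots, also without overlap. Root-only roots, at 2.12 ± 0.31, likewise lay above every control root in the cesa11 to cesa10 ratio. Their cesa11 to cesa12 ratio overlapped the control, as did both ratios in shoot-only roots. The ratios are given as values without a test, and their absolute size carries no comparison between genes. How often ratios of other gene pairs separated without overlap was not counted.

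**Figure D3:**
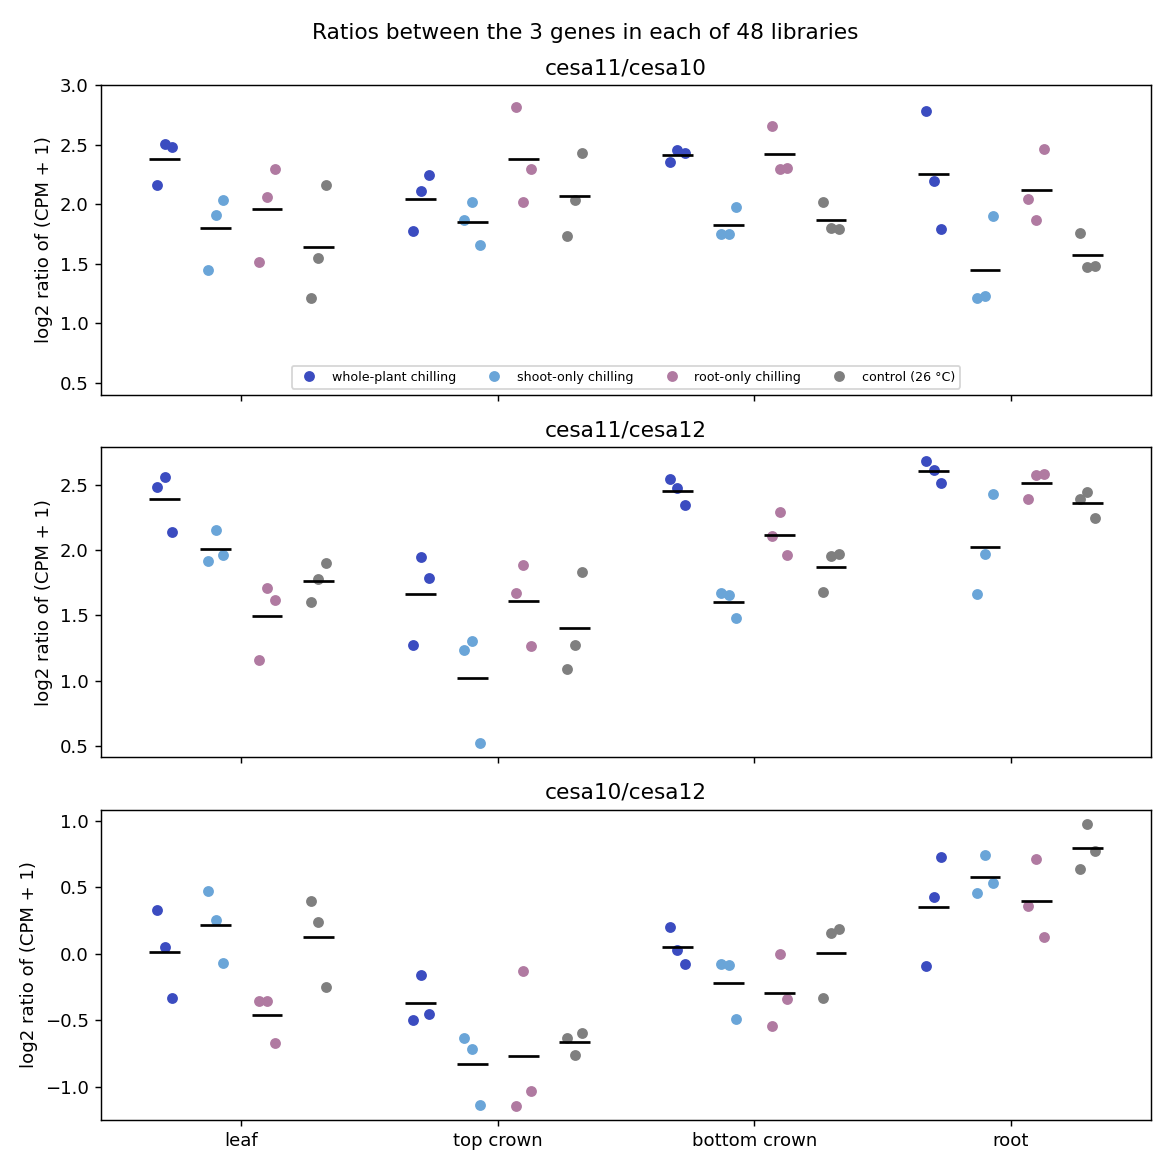
Log2 ratios between pairs of the 3 genes, computed from CPM + 1, in each of the 48 libraries; points are libraries, black bars are means of 3 and colours mark whole-plant, shoot-only and root-only chilling and control. The ratio of cesa11 to each of the others sits higher in whole-plant chilled bottom crowns than in control bottom crowns, without overlap.

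Over all 48 libraries the genes nonetheless tracked each other closely. Pearson's correlation of log2(CPM + 1) was 0.963 between cesa10 and cesa11, 0.929 between cesa10 and cesa12 and 0.941 between cesa11 and cesa12. Among 16134 genes with at least 10 CPM in some group, cesa11 was the gene most like cesa10, and cesa10 the gene most like cesa11. As ranks in that list, cesa12 stood at 3 for cesa10 and at 2 for cesa11. The libraries share tissues and conditions, so these correlations describe the pattern and are given without a test.

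The correlations were lower once tissue differences were removed. With each tissue centred on its own mean, the correlations were 0.852 for cesa10 with cesa11, 0.893 for cesa10 with cesa12 and 0.870 for cesa11 with cesa12. The ranks changed too. On this scale cesa10 and cesa12 stood at 1 for each other, and cesa11 stood at 2 for cesa10 and at 3 for cesa12. For cesa11, cesa12 stood at 6 and cesa10 at 18, with Zm00001d009795 at 1 (0.893). Within tissues, over 12 libraries each, they lay between 0.919 and 0.980 in root and between 0.872 and 0.955 in leaf. They were lower in the crown parts, where changes were small: between 0.388 and 0.753 in the bottom crown and between 0.197 and 0.682 in the top crown, where cesa11 with cesa12 was the weakest pair.

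**Figure D4:**
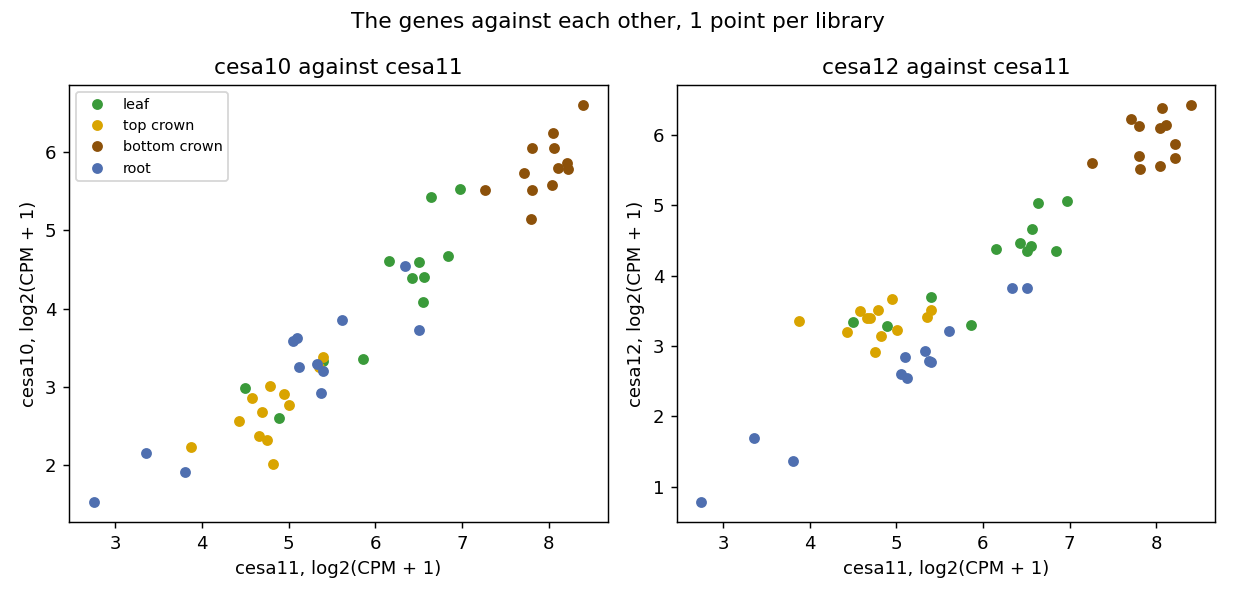
Levels of cesa10 (left) and cesa12 (right) against cesa11, both axes log2(CPM + 1), with 1 point per library and colours for leaf, top crown, bottom crown and root. Bottom crown libraries sit at the top right and the lowest root libraries at the lower left. Conditions are not marked, and the lowest root libraries are those of shoot-only chilling. The correlation over the 48 libraries is 0.963 for cesa10 and 0.941 for cesa12.

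Without centring by tissue, some other genes followed the set about as closely as its members did one another. Zm00001d005775 had correlations of 0.932 with cesa10, 0.924 with cesa11 and 0.942 with cesa12, the highest of any gene for cesa12. Its mean level in control was 65.9 CPM in the bottom crown, 21.1 CPM in leaf, 7.6 CPM in root and 4.2 CPM in the top crown, the same order as for cesa10. It had 10.9 CPM in root-only leaves, against 21.1 CPM in control leaves, and 2.0 CPM in shoot-only roots, against 7.6 CPM in control roots. Other root groups departed from the set. Whole-plant chilled roots had 6.1 CPM, where each member had its highest root mean, though only cesa11 was called against control. Root-only roots had 3.6 CPM. The gene was picked by its correlation over these same libraries, so the likeness of its levels is no separate result.

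The remaining genes named by the same rule were Zm00001d021938, at 0.934 with cesa11, Zm00001d040173, at 0.927 with cesa12, and Zm00001d047276, at 0.895 with cesa10. Zm00001d021938 had a mean of 339.7 CPM in whole-plant chilled roots, against 48.6 CPM in control roots, and 21.0 CPM in shoot-only roots. Its mean in root-only roots was 85.3 CPM. Unlike cesa11, it had a higher control mean in the top crown, 144.3 CPM, than in the root. No names or annotations were paired with these identifiers, and the choice of measure mattered: with Spearman's rho, cesa12 ranked 12 for cesa10 and 16 for cesa11. With each tissue centred, none of the genes named by this rule, Zm00001d005775 included, was among the 2 closest non-members of any member.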

How the data were processed

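Libraries were made with a 3′ mRNA kit (QuantSeq, forward version) from Trizol-extracted RNA, per the labels' protocols. The submitters' processing notes name STAR and edgeR without versions. How reads were assigned to genes, on which strand and on which genome build, is not given in the sources that were available. Whole-number counts, 1 column per library, were deposited by the authors and were the only values used. Genes with near-identical copies, or that overlap another gene, may share reads; whether this affects cellulose synthases was not examined.

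For each tissue, its 12 libraries entered 1 edgeR model (version 4.0.16, R 4.3.3; filterByExpr, TMM, robust quasi-likelihood fit of 4 condition means), with Benjamini-Hochberg adjustment over all genes tested and a threshold of 0.05. Tissue comparisons and differences of response came from 1 fit of 48 libraries and 16 groups. DESeq2 1.42.0, other scalings, no filter, a replicate block and leaving out each library were alternatives. Leave-one-out fits of the 48-library model kept its genes and dispersion trend. All 48 pairs of replicates differed beyond sampling noise (chi-square per degree of freedom at least 3.73). In simulated counts with the fold changes known, for whole-plant chilling against control, the leaf fit of 15845 genes recovered 89% of genes changed by 2 on the log2 scale and 36% of those changed by 1. For root, with 18831 genes, these shares were 78% and 16%.

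Same-numbered libraries correlated by over 0.1 in every pair in 5 of 30 comparisons (range over all pairs -0.29 to 0.41). Whether the numbers mark shared plants is not stated. The spread behind each p-value is that between these samples, described as biological repeats, and part of that spread may be technical. The named genes were the 3 members in every comparison and, for each, the 2 other genes with the highest Pearson correlation. The members and lists were chosen with earlier results of these data known. The lists of other wall genes and of nuclear tissue markers could not be filled, because no identifier among 44146 nuclear gene models was found in the name table (Zm-B73-REFERENCE-NAM-5.0). Sequences and coordinates are not given for the same reason. The deposited tables of scaled values were not used.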

Additional observations from a re-analysis of the deposited data

Results flagged for a closer look

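The leaf and root responses differed by a test of the difference itself (change in leaf minus change in root, log2) for 7 results. Under shoot-only chilling the difference was 2.19 for cesa10, 2.20 for cesa11 and 2.05 for cesa12. Under root-only chilling it was -1.45 for cesa10, -1.53 for cesa11 and -1.19 for cesa12. Under whole-plant chilling it was -1.34 for cesa12.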

How the results depend on the processing

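No result changed direction past its threshold. Of 108 results, the same side of the threshold was kept in 105 with DESeq2, 107 with DESeq2's size factors in edgeR, 95 with library size alone, 103 without a filter and 104 with a replicate block, in 87 of 90 with only the 6 libraries compared, in 65 of 72 with all 48 libraries in 1 fit, and in 704 of 756 fits that left out 1 library; the cause of each change was not tested. With library size alone, calls were lost for whole-plant against root-only leaf in cesa10 (0.68) and cesa12 (0.15), whole-plant against shoot-only top crown in cesa11 (0.56), whole-plant root in cesa11 (0.50), control leaf against root in cesa10 (0.23) and cesa11 (0.18), control leaf against top crown in cesa12 (0.29), and leaf minus root in whole-plant cesa12 (-1.07) and root-only cesa10 (-1.04) and cesa12 (-0.79). Gained were root-only bottom crown cesa11 (-0.52) and cesa12 (-0.76) and control root against top crown cesa12 (-0.63). That last difference was also gained with DESeq2 (-0.61) and the block (-0.57), and its cesa11 value with 6 libraries (0.57). Root-only bottom crown cesa12 was gained with DESeq2's size factors (-0.49), no filter (-0.51), the block (-0.50) and 6 libraries (-0.49). Shoot-only against root-only top crown cesa11 was gained with DESeq2 (-0.64), no filter (-0.62) and the block (-0.64), and whole-plant against root-only root cesa11 with DESeq2 (0.92), no filter (0.85), the replicate block (0.82) and all 48 libraries (0.89), the last also for cesa12 (0.86). No filter added whole-plant leaf cesa10 (-0.71) and removed leaf minus root in root-only cesa10 (-1.37). Whole-plant root cesa11 was lost with 6 libraries (0.87). All 48 libraries in 1 fit removed whole-plant against shoot-only cesa11 in top crown (0.72) and bottom crown (0.55), whole-plant (-0.58) and shoot-only (-0.55) bottom crown cesa10, and shoot-only bottom crown cesa11 (-0.57). Pairing by replicate number was met in 5 of 30 comparisons, and the block changed no other call.

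Leaving out 1 library changed a call in these ranges of the log2 difference: root-only against control in bottom crown cesa12 -0.69 to -0.36, shoot-only against control in bottom crown cesa10 -0.70 to -0.37, cesa11 -0.67 to -0.41, whole-plant against control in bottom crown cesa10 -0.70 to -0.40, cesa12 -0.71 to -0.54, whole-plant against shoot-only in bottom crown cesa11 0.40 to 0.65, cesa12 -0.49 to -0.19, root against top crown in control cesa12 -0.75 to -0.37, whole-plant against control in leaf cesa10 -1.08 to -0.31, whole-plant against root-only in leaf cesa10 0.91 to 1.57, cesa12 0.61 to 1.04. The remaining ranges were whole-plant against control in root cesa11 0.65 to 1.13, whole-plant against root-only in root cesa10 0.35 to 1.12, cesa11 0.67 to 1.15, cesa12 0.69 to 1.16, leaf minus root under root-only chilling cesa10 -1.67 to -1.06, cesa12 -1.40 to -1.01, shoot-only against root-only in top crown cesa11 -0.83 to -0.38, whole-plant against root-only in top crown cesa10 0.077 to 0.97, whole-plant against shoot-only in top crown cesa11 0.49 to 0.90, leaf minus root under whole-plant chilling cesa11 -1.17 to -0.60, cesa12 -1.66 to -0.999.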
